A study of Mus musculus with 18 samples.

Results

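The CC and XC chemokine ligands measured here are Ccl2, Ccl3, Ccl4, Ccl5, Ccl6, Ccl20, Ccl22 and Xcl1, 8 of the 18193 genes that had a probe set annotated with a single symbol. A probe set is the group of short probes that reads 1 transcript on an Affymetrix M430v2 array. Each ligand was represented by its probe set with the highest mean over the 18 arrays. Ccl6 had a second probe set, used as a check, and the other 7 ligands had 1. RNA came from CD4 T cells sorted as CD25+ (here Treg, regulatory T cells) or CD25- (here Tconv, conventional T cells) from abdominal fat, lymph nodes (LN) and thymus, with 3 arrays for each of 6 groups. For both fat groups the donors were male C57BL/6 mice aged 25 to 35 weeks, 8 to 10 of them pooled per array, and the cells were also selected as TCRb+. Both LN groups came from the cervical, inguinal and mesenteric nodes of C57BL/6 mice of 32 to 36 weeks, with 3 to 6 mice per array. Both thymus groups came from BDC2.5/NOD mice, which carry a T cell receptor transgene, of 4 to 6 weeks, with 3 to 6 mice per array, and were depleted of CD8a+ cells by magnetic beads ahead of sorting. Gates for all cells took CD4+ events and left out those with B220, CD11b or CD8a. Thymus thus differs from the other tissues in strain and age as well. Replicates are pools, so errors describe the spread between pools and their preparation, not between mice.

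Chemokines are small secreted proteins that steer leukocytes through G protein-coupled receptors. CCL3, CCL4 and CCL5 are inflammatory ligands, of which CCL3 and CCL5 bind CCR1. CCL2 recruits monocytes through CCR2, CCL6 is a mouse chemokine known from myeloid cells, CCL20 acts through CCR6 and CCL22 through CCR4. XCL1, or lymphotactin, is made by activated T and NK cells and acts through XCR1 on cross-presenting dendritic cells. In fat, ligands of this kind are made by macrophages and stromal cells as well as by lymphocytes. Arrays of sorted cells cannot tell more RNA per cell from a larger share of cells that make it.

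Values are linear probe set intensities after quantile normalization of all 18 arrays. A dim level was set at an intensity of 66.2, the median of all values, and a gene was tested where at least 1 group mean lay above it. This left 12273 genes, among them Ccl3, Ccl4, Ccl5 and Ccl6. Ccl2, Ccl20, Ccl22 and Xcl1 lay below the dim level in each group mean, so they were not tested and no call was made for them. Ccl3 and Ccl6 passed through the fat groups alone, so a difference between fat and LN was built into their selection. The same holds for Ccl9 and Ccr4, which passed through the fat groups alone, and for Ccr1 and Ccr3, which passed through fat Treg alone. Tests of these genes in those comparisons are therefore given as descriptions, each with the adjusted p of a fit with no dim filter. Some cell type markers also passed through 1 or both fat groups alone, as given with their counts. Where each array of the lower group was under the dim level, the fold is a lower bound with that level as the floor. T cell markers were present throughout, with 12 of 12 measured above the dim level in each group. Markers of other cells were also present on the fat arrays. Of 10 defining macrophage markers 9 were measured, and 7 of the 9 had a mean above the dim level in each fat group, against 4 of 9 in each LN and thymus group. Their summed intensity on the arrays of replicate numbers 1, 2 and 3 was 2578, 1097 and 3116 in fat Treg and 2204, 815 and 1699 in fat Tconv. It was 648 to 802 in LN Treg and 625 to 807 in LN Tconv, below each fat array, and 564 to 802 in thymus Treg and 621 to 895 in thymus Tconv. The defining markers Cd68 and C1qc stayed below the dim level in fat as group means, and Itgam, which encodes the excluded CD11b, averaged 20.3 ± 1.74 in fat Treg and 23.9 ± 2.25 in fat Tconv (mean ± SD over 3 arrays).

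**Figure D1:**
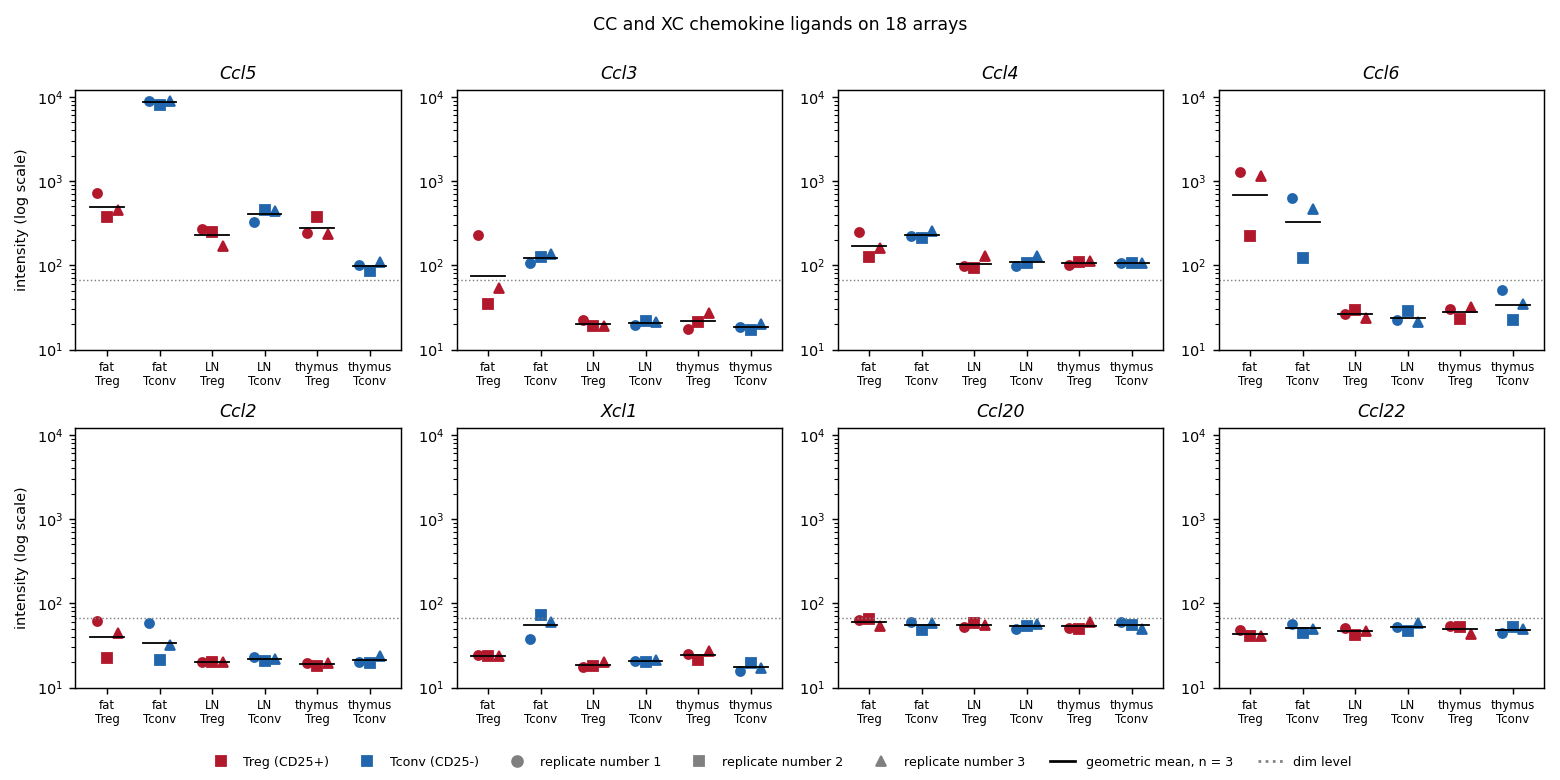
Intensity (log axis) of the 8 ligands on 18 arrays, by group, with symbols for replicate numbers 1 to 3, a black bar for the geometric mean of 3 arrays and a dotted line at the dim level of 66.2. Ccl5 stands between 8073 and 8967 in fat Tconv, far above each other group, Ccl3 and Ccl6 are above the dim level on some or all fat arrays only, and Ccl20 and Ccl22 are flat and dim.

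Promoter sequence is shown for 3 ligands. Ccl3 and Ccl6 are chromosome neighbours that were both higher in fat than in LN, and Xcl1 was highest in fat Tconv. The order of genes on chromosome 11 in RefSeq GRCm38.p6 is Ccl5, Ccl9, Ccl6, Ccl3, Ccl4, so 4 of the ligands and Ccl9 lie side by side. Sequences are the 250 bases before the RefSeq start, 5′ to 3′ on the gene's strand, with a match to a searched motif in capitals. Promoters of 5 of the 8 ligands were matched by symbol (Ccl3, Ccl6, Ccl20, Ccl22 and Xcl1). Ccl3 lies at chr11:83649379-83649628 on the minus strand, Ccl6 at chr11:83593088-83593337 on the minus strand and Xcl1 at chr1:164935523-164935772 on the minus strand.
Ccl3: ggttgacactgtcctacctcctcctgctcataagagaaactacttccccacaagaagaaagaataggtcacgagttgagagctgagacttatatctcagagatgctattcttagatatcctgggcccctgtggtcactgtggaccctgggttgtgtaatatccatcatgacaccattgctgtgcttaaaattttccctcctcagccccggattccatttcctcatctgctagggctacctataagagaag
Ccl6: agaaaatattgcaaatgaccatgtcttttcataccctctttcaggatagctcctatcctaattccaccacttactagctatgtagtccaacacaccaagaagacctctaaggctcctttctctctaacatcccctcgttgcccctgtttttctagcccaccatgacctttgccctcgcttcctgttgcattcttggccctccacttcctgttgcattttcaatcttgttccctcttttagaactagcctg
Xcl1: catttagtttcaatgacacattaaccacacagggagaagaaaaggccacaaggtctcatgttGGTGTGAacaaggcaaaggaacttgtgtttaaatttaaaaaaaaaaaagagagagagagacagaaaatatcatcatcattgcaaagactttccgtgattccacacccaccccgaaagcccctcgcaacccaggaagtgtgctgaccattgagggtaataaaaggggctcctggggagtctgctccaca
Both strands were searched for the NF-kB consensus, the AP-1 motif TGANTCA, the T-box motif GGTGTGA and the TATA box TATAAA. Among 32851 mouse promoters of this length, 7.25% held the NF-kB consensus, 6.75% the AP-1 motif, 3.33% the T-box motif and 12.4% the TATA box. The Xcl1 window held 1 T-box match, 188 bases before the start, and no other match. The Ccl20 window held an NF-kB match 80 bases and a T-box match 168 bases before the start. None of these letters were in the windows of Ccl3, Ccl6 and Ccl22.

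Ccl5 (probe set 1418126_at), also known as RANTES and made by activated and memory T cells and NK cells, was the ligand that differed most between Treg and Tconv. Its intensity on arrays 1, 2 and 3 was 721, 376 and 448 in fat Treg and 8847, 8073 and 8967 in fat Tconv. In LN it was 273, 251 and 171 in Treg and 323, 455 and 443 in Tconv. In thymus it was 241, 370 and 237 in Treg and 99.5, 86.6 and 110 in Tconv. Within each tissue the 3 Treg arrays did not overlap the 3 Tconv arrays, and Treg lay below Tconv in fat and LN but above Tconv in thymus. Groups did not overlap for 27.4% of tested genes in fat, 18.2% in LN and 20.1% in thymus. Ordered by group mean, fat Tconv came first with no overlap with the next group. The ranges of fat Treg and LN Tconv overlapped, as did those of LN Tconv and thymus Treg and of thymus Treg and LN Treg, and thymus Tconv was lowest, apart from the rest.

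In fat, Ccl5 averaged 515 ± 182 in Treg and 8629 ± 485 in Tconv (SD, n = 3 each), a log2 difference of -4.12 ± 0.24 (SE), or 17.4-fold lower in Treg, with a limma adjusted p of 1.95e-09. It was the 1 called ligand of the 4 tested in this comparison, where 12.9% of all tested genes were called. In LN the log2 difference was -0.82 ± 0.24 with a 95% interval of -1.32 to -0.33, and it missed the threshold (limma adjusted p = 0.0626). With the replicate number as a block its adjusted p was 0.043 (limma). It was 0.0495 without the LN Tconv array of replicate number 1. No ligand was called in LN, where 4.67% of tested genes were. At an unadjusted p under 0.05, Ccl5 passed there and Ccl3, Ccl4 and Ccl6 did not. In thymus Ccl5 was 2.81-fold higher in Treg (log2 1.49 ± 0.24, limma adjusted p = 0.000715), again the 1 called ligand of 4, against 5.67% of tested genes.

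The difference between Treg and Tconv therefore changed with tissue. The Treg effect on Ccl5 in fat minus that in LN was -3.30 ± 0.34 on the log2 scale (limma adjusted p = 6.64e-06), the 1 called ligand of 4 in a comparison that called 5.41% of genes. Further differences were added after the values had been seen. The Treg effect in thymus minus that in LN was 2.32 ± 0.34 (limma adjusted p = 0.00302, with 0.342% of genes called), and that in fat minus thymus was -5.61 ± 0.34 (limma adjusted p = 1.11e-08, with 7.17% of genes called). Treg and Tconv of a tissue shared strain and age range. Fat and LN mice were of the same strain with overlapping ages, while thymus mice differed from both in strain and age.

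Both fat populations carried more Ccl5 RNA than their LN counterparts. The log2 difference was 1.12 ± 0.24 in Treg (2.18-fold, limma adjusted p = 0.0014) and 4.42 ± 0.24 in Tconv (21.4-fold, limma adjusted p = 8.51e-10), with no overlap of arrays in either. Arrays did not overlap for 50.8% of tested genes in Treg and 37.4% in Tconv. Within arrays of consecutive file numbers, which may share a run, fat arrays 3, 2 and 1 stood beside LN arrays 1, 2 and 3. In that order the 3 fat to LN differences were 0.71, 0.58 and 2.07 in Treg and 4.80, 4.15 and 4.32 in Tconv. In fat Tconv, Ccl5 was 8847, 8073 and 8967 on arrays 1, 2 and 3, with macrophage marker sums of 2204, 815 and 1699. In fat Treg it was 721, 376 and 448, with sums of 2578, 1097 and 3116. The part of macrophages in the Ccl5 level was not tested.

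Markers of NK and cytotoxic cells, of which 12 of 13 were measured, also differed between the groups. Their summed intensity was 2310 to 3500 in fat Treg and 8452 to 9376 in fat Tconv, against 1509 to 1885 in LN Treg and 1710 to 1902 in LN Tconv. Of 11 tested, 6 were lower and 1 was higher in fat Treg than in fat Tconv, where 12.9% of all tested genes were called. Klrk1, among the 6 lower, passed the dim filter through fat Tconv alone, so its direction was built into its selection. In LN 2 were higher and 3 lower in Treg (4.67% of all called), with overlapping sums, and in thymus 3 were higher and 2 lower in Treg (5.67%). Between fat and LN Treg 2 were higher and 1 lower, against 35.6% of all genes called. Between fat and LN Tconv 6 were higher and 2 lower, against 23.7%, and Klrk1 was among the 6, again as its selection required. Fasl, the ligand that triggers death through Fas, averaged 67.0 ± 11.6 in fat Treg and 2393 ± 197 in fat Tconv, as mean ± SD of 3 arrays. Eomes, a T-box regulator of cytotoxic cells, averaged 67.5 ± 20.0 in fat Treg and 721 ± 215 in fat Tconv, and the granule protein gene Nkg7 averaged 454 ± 48.2 in fat Treg and 4204 ± 376 in fat Tconv. The 1 higher was Gzmb, which encodes granzyme B, with 1817 ± 550 in fat Treg and 318 ± 43.6 in fat Tconv. Ncr1, a receptor that defines NK cells, was below the dim level in both, at 43.6 ± 8.39 in fat Treg and 48.5 ± 6.74 in fat Tconv. In thymus the summed intensity of the list was 6071, 8913 and 2833 on Treg arrays 1, 2 and 3 and 1714 to 2397 in Tconv, and Treg array 2 had both the highest sum and the highest Ccl5 of the thymus arrays. The part of such cells in the Ccl5 result was not tested.

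By the rule of highest Pearson correlation over the 18 arrays on the log2 scale, the genes most like Ccl5 were Pawr (r = 0.97), Ifng (0.95) and Tbx21 (0.95). These arrays share tissue and cell type, so r mostly describes the contrast of fat Tconv with the other groups. Tbx21 and Pawr passed the dim filter through fat Tconv alone, so a higher level there was built into their selection. Their r and values are descriptions. Ifng, the gene of interferon gamma, averaged 498 ± 443 in fat Treg and 11324 ± 785 in fat Tconv. Tbx21, which encodes the Th1 regulator T-bet, averaged 47.2 ± 16.8 in fat Treg and 1205 ± 473 in fat Tconv, and Pawr averaged 18.9 ± 2.90 in fat Treg and 96.5 ± 4.08 in fat Tconv (mean ± SD of 3 arrays).

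**Figure D2:**
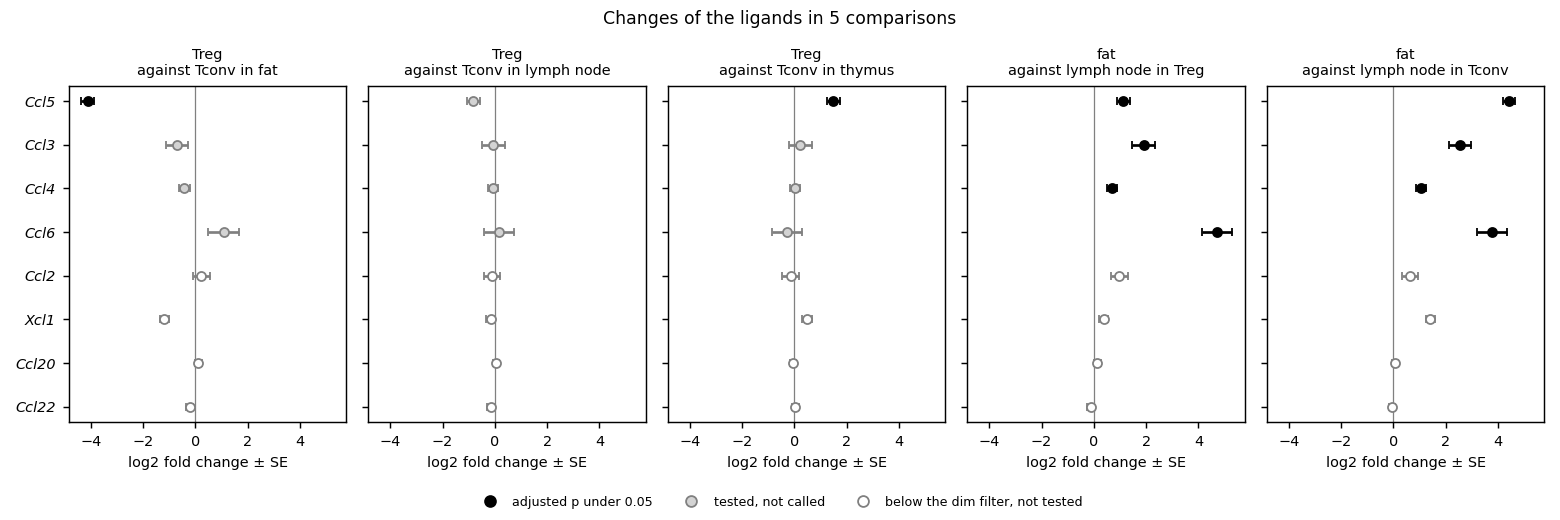
Log2 fold change with its standard error for the 8 ligands in 5 comparisons of 3 against 3 arrays, with filled black points where limma's adjusted p was under 0.05, grey points where it was not, and open points for ligands below the dim filter. Ccl5 stands at -4.12 in fat and 1.49 in thymus for Treg against Tconv, and all 4 tested ligands lie to the right of 0 in both fat against lymph node panels.

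Ccl3 (probe set 1419561_at) and Ccl4 (1421578_at) encode the macrophage inflammatory proteins MIP-1 alpha and MIP-1 beta, which T cells also release on activation. Ccl3 had an intensity of 228, 34.4 and 53.1 on fat Treg arrays 1, 2 and 3, and 105, 125 and 137 on fat Tconv arrays. Each of the other 12 arrays had 17.2 to 26.9. Fat Treg array 1 was above all fat Tconv arrays and the other 2 were below them, so the groups overlapped. The log2 difference between fat Treg and fat Tconv was -0.71 ± 0.43, with a 95% interval of -1.62 to 0.21 (limma adjusted p = 0.382). Without fat Treg array 1 it was -1.51 (limma adjusted p = 5.6e-05).

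Ccl4 showed the same arrangement at a smaller scale. Its intensity was 247, 126 and 160 on fat Treg arrays 1, 2 and 3 and 220, 214 and 255 on fat Tconv arrays. In LN it was 97.7, 92.7 and 127 in Treg and 98.3, 105 and 129 in Tconv, and in thymus it was 101 to 113 in Treg and 105 to 108 in Tconv. Fat Treg array 1 again stood highest of its group, within the range of fat Tconv. The log2 difference in fat was -0.42 ± 0.19, with a 95% interval of -0.82 to -0.02 (limma adjusted p = 0.207). Without fat Treg array 1 it was -0.69 (limma adjusted p = 0.0125). Over the 18 arrays Ccl3 and Ccl4 had r = 0.96, each being the other's most similar gene, and Gas7 was among the next for both (0.94 with Ccl3 and 0.93 with Ccl4). Btnl9 (0.94 with Ccl3) and Plce1 (0.95 with Ccl4) completed these sets. Gas7 and Btnl9 passed the dim filter through the fat groups alone and Plce1 through fat Tconv alone. A higher level in fat was thus built into their selection.

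Both ligands that passed the filter through LN as well as fat, Ccl4 and Ccl5, were called higher in fat than in LN in both populations. Of all tested genes 35.6% were called in Treg (16.3% higher) and 23.7% in Tconv (11.4% higher). Ccl3 and Ccl6 lay higher in fat too, as their selection required. Ccl3 was at least 1.13-fold higher in fat Treg (measured log2 difference 1.90 ± 0.43, limma adjusted p = 0.00227, or 0.00317 with no dim filter). It was at least 1.84-fold higher in fat Tconv (2.54 ± 0.43, limma adjusted p = 0.000327, or 0.000493 with no dim filter). Without fat Treg array 1 the Ccl3 difference in Treg was 1.10 and was called (limma adjusted p = 0.00059). That call compared values below the dim level, since fat Treg arrays 2 and 3 had 34.4 and 53.1 and each LN Treg array was lower still. The lower bound of 1.13-fold in Treg thus rested on array 1, the only fat Treg array above the dim level. Ccl4 was 1.63-fold higher in fat Treg (log2 0.71 ± 0.19, limma adjusted p = 0.00906) and 2.08-fold higher in fat Tconv (1.06 ± 0.19, limma adjusted p = 0.000716). The Ccl4 arrays of fat Treg and LN Treg overlapped, and without fat Treg array 1 the call was lost (log2 0.44, limma adjusted p = 0.0613). Differences within arrays of consecutive file numbers are given in the order of fat arrays 3, 2 and 1. Ccl3 was higher in fat by 1.23, 0.87 and 3.60 in Treg and by 2.79, 2.51 and 2.33 in Tconv. Ccl4 was higher by 0.72, 0.45 and 0.96 in Treg and by 1.38, 1.02 and 0.77 in Tconv. In fat Treg, Ccl3 was 228, 34.4 and 53.1 on arrays with macrophage marker sums of 2578, 1097 and 3116. In fat Tconv it was 105, 125 and 137 on arrays with sums of 2204, 815 and 1699, so the lowest Ccl3 lay on the array with the lowest sum in Treg and on that with the highest sum in Tconv. Fat Treg array 1, the array with 228, had a summed intensity of stromal, endothelial and mesothelial markers of 7393, against 2694 and 3354 on fat Treg arrays 2 and 3. In fat Tconv the sum was likewise highest on array 1, at 5591 against 2602 and 2633, but Ccl3 was lowest there, at 105. Of these markers, Col1a1, Col3a1 and Dcn passed the dim filter through the fat groups alone and Lum through fat Tconv alone. The part of macrophages or stromal cells in the Ccl3 values was not tested.

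Ccl6 (probe set 1417266_at) was the ligand with the largest measured log2 difference between fat and LN Treg. Its intensity was 1285, 222 and 1158 on fat Treg arrays 1, 2 and 3 and 625, 122 and 466 on fat Tconv arrays. It was 23.4 to 29.2 in LN Treg, 21.2 to 28.9 in LN Tconv, 22.8 to 31.6 in thymus Treg and 22.3 to 51.1 in thymus Tconv. Each fat array exceeded all 12 other arrays, and array 2 was lowest in both fat groups. Ccl6 was at least 10.5-fold higher in fat than in LN Treg (measured log2 difference 4.72 ± 0.58, limma adjusted p = 6.83e-06, or 1.16e-05 with no dim filter). It was at least 4.97-fold higher in fat than in LN Tconv (3.78 ± 0.58, limma adjusted p = 0.000132, or 0.000208 with no dim filter). Without array 2 of the fat group the differences were 5.53 in Treg and 4.50 in Tconv. Within arrays of consecutive file numbers, in the order of fat arrays 3, 2 and 1, they were 5.44, 2.93 and 5.78 in Treg and 4.39, 2.08 and 4.88 in Tconv.

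In fat, Ccl6 averaged 888 ± 581 in Treg and 404 ± 257 in Tconv (SD, n = 3 each), and the groups overlapped. The log2 difference was 1.07 ± 0.58, with a 95% interval of -0.16 to 2.30 (limma adjusted p = 0.302). Leaving out single arrays moved it between 0.358 (without fat Tconv array 2, limma adjusted p = 0.851) and 1.89 (without fat Treg array 2, limma adjusted p = 0.0166), and it was 1.18 without both arrays of number 2 (limma adjusted p = 0.022). The arrays of 1 replicate number varied together, and within numbers 1, 2 and 3 the Treg array was higher by 1.04, 0.87 and 1.31. With the replicate number as a block the same difference was called (limma adjusted p = 0.000209), and its difference from the Treg effect in LN, 0.93, had an adjusted p of 0.698 without and 0.0122 with the block (limma). The second probe set of Ccl6 (1420249_s_at) gave 266, 49.8 and 221 on fat Treg arrays and 85.2, 35.3 and 75.4 on fat Tconv arrays. It was higher in fat than in LN by 2.05 in Treg (limma adjusted p = 0.00283) and by 0.71 in Tconv, which was not called (limma adjusted p = 0.307).

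The fat arrays had nearly the same order for Ccl6 as for the 9 macrophage markers. The 3 lowest Ccl6 values, 122, 222 and 466, were on the arrays with the 3 lowest marker sums, 815, 1097 and 1699. The highest, 1285 and 1158, were on those with sums of 2578 and 3116. Csf1r, the receptor that macrophages need to survive, was 981, 274 and 793 in fat Treg and 1142, 194 and 453 in fat Tconv. Adgre1, which encodes the macrophage surface protein F4/80, was 558, 171 and 498 in fat Treg and 237, 116 and 247 in fat Tconv. Of 25 macrophage and monocyte markers 24 were measured and 18 tested. In fat against LN, 13 were higher and 1 was lower in Treg, and 8 were higher in Tconv. Across all tested genes, 16.3% were called higher in Treg and 11.4% in Tconv. Among the markers higher in Treg, Mrc1, C1qa, C1qb, Cd163, Tyrobp and Fcer1g passed the dim filter through the fat groups alone. In Tconv the same held for Cd14, Mrc1, C1qb, Cd163 and Tyrobp. A higher level of these genes in fat was built into their selection, so the counts are descriptions. Between fat Treg and fat Tconv none of the 18 was called higher and Ctss, a lysosomal protease gene also strong in LN T cells, was called lower (log2 -1.12, limma adjusted p = 0.0158). The summed intensity of the 24, Ctss included, was 3570 to 8435 in fat Treg and 5642 to 8743 in fat Tconv, against 9591 to 10573 in LN Treg and 7880 to 8279 in LN Tconv. Array 2 was also lowest of both fat groups for other lists. Adipocyte markers, 6 of 8 measured, summed to 2766, 2007 and 2546 on arrays 1, 2 and 3 of fat Treg and 2882, 1620 and 2364 of fat Tconv, against 215 to 261 in LN Treg and 217 to 244 in LN Tconv. In each fat group 2 of the 6 had a mean above the dim level, against 1 in each LN group. Most of the sum in fat was Fabp4, which averaged 2103 in Treg and 2000 in Tconv. Fabp4 passed the dim filter through the fat groups alone. Dendritic cell markers, 11 of 12 measured, summed to 3241, 2207 and 3452 in fat Treg and 2432, 1597 and 1898 in fat Tconv, against 1806 to 2164 in LN Treg and 1416 to 2516 in LN Tconv. The part of macrophages, adipocytes or dendritic cells in the Ccl6 result was not tested.

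**Figure D3:**
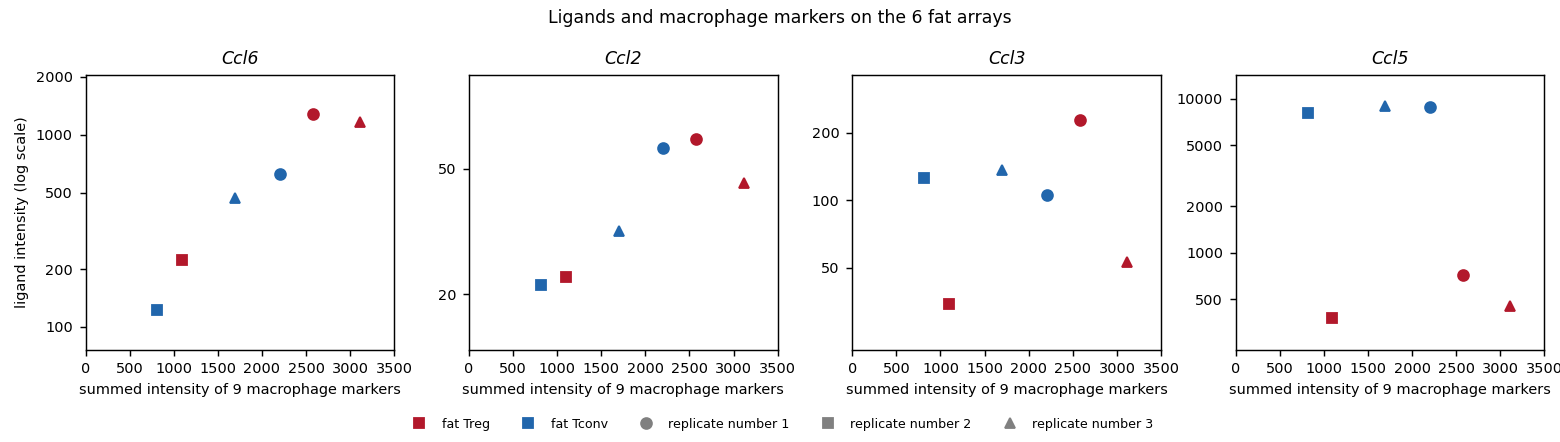
Intensity (log axis) of Ccl6, Ccl2, Ccl3 and Ccl5 on the 6 fat arrays against the summed intensity of 9 defining macrophage markers, red for Treg and blue for Tconv, with symbols for replicate numbers. Ccl6 and Ccl2 are lowest on the arrays with sums of 815 and 1097, while Ccl5 in fat Tconv stays between 8073 and 8967 over sums of 815 to 2204. The part of macrophages in these levels was not tested.

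The genes most like Ccl6 over the 18 arrays were Cyyr1 (r = 0.99), Lpl (0.99) and Ackr3 (0.98), as a description of arrays that share tissue. Cyyr1 and Ackr3 passed the dim filter through the fat groups alone, so a higher level in fat was built into their selection. Lpl encodes lipoprotein lipase, which adipocytes and macrophages make, and averaged 1471 ± 941 in fat Treg and 1240 ± 813 in fat Tconv, as mean ± SD of 3 arrays, against 42.7 to 45.4 as means of the LN groups.

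Ccl2 (probe set 1420380_at), the ligand of CCR2, stayed below the dim level on each array, with 62.3, 22.7 and 45.0 in fat Treg and 58.2, 21.4 and 31.7 in fat Tconv. The other 12 arrays had 18.2 to 23.6. Array 2 of each fat group lay within that range. It was also lowest of its group for Ccl6 and for the macrophage, stromal, adipocyte and dendritic cell marker sums. Ccl2 was highest on array 1 in both fat groups, as were the stromal and adipocyte sums. The macrophage sum was highest on array 3 in fat Treg and on array 1 in fat Tconv. The part of any of these cells in the Ccl2 values was not tested. The log2 difference between fat and LN was 0.97 ± 0.31 in Treg and 0.62 ± 0.31 in Tconv, and that between fat Treg and fat Tconv was 0.23 ± 0.31. With no dim filter their limma adjusted p-values were 0.0268, 0.187 and 0.849, in comparisons where 28% (fat against LN in Treg), 18.4% (in Tconv) and 8.61% (fat Treg against fat Tconv) of the genes were called.

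Xcl1 (probe set 1419412_at), the only XC ligand of the set, had 24.4, 23.4 and 23.9 on fat Treg arrays and 37.5, 72.8 and 60.0 on fat Tconv arrays. It was 17.3 to 20.0 in LN Treg, 20.1 to 21.1 in LN Tconv, 21.3 to 26.9 in thymus Treg and 15.8 to 19.5 in thymus Tconv. Fat Tconv lay above all the other 15 arrays, and 1 of its arrays passed the dim level. Among tested genes, arrays did not overlap for 27.4% between fat Treg and fat Tconv and for 37.4% between fat and LN Tconv. The log2 difference between fat Treg and fat Tconv was -1.20 ± 0.18 and that between fat and LN Tconv 1.41 ± 0.18. With no dim filter the limma adjusted p-values were 0.000184 and 2.92e-05, in comparisons where 8.61% and 18.4% of the genes were called. In Treg the difference between fat and LN was 0.38 ± 0.18 (0.127 with no dim filter, limma adjusted p). Treg lay above Tconv in thymus by 0.49 ± 0.18 (limma adjusted p = 0.191 with no dim filter). Xcl1 thus had Ccl5's order of Treg and Tconv in each tissue, at intensities near or below the dim level, and the NK and cytotoxic marker sums given for Ccl5 stand beside it too.

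Ccl20 (probe set 1422029_at), the ligand of CCR6, was between 48.3 and 65.3 on all 18 arrays, and the groups overlapped in each comparison. Ccl22 (1417925_at), the ligand of CCR4 made by dendritic cells and macrophages, was between 40.7 and 58.1. The largest log2 difference of Ccl22 in the 5 comparisons was -0.22 ± 0.13, between fat Treg and fat Tconv, with a 95% interval of -0.50 to 0.05. Ccl20 illustrates the effect of scale. On the deposited values it was higher in fat than in LN by 0.57 in Treg (limma adjusted p = 0.00412) and 0.44 in Tconv (0.0238), but the median of all genes was itself higher by 0.34 and 0.32. After quantile normalization the Ccl20 differences were 0.13 ± 0.12 in Treg and 0.05 ± 0.12 in Tconv.

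Of 15 other CC and CX3C ligands 12 were measured and 5 tested. Ccl9, the myeloid chemokine gene that lies between Ccl5 and Ccl6, was the 1 called, between fat and LN. Across all tested genes, 16.3% were called higher in fat in Treg and 11.4% in Tconv. Ccl9 passed the dim filter through the fat groups alone, so its higher level in fat was built into its selection. It was at least 3.81-fold higher in fat than in LN Treg (measured log2 difference 2.70 ± 0.47, limma adjusted p = 0.000275, or 0.000407 with no dim filter). In Tconv it was at least 2.27-fold higher (1.90 ± 0.47, limma adjusted p = 0.00731, or 0.00994 with no dim filter). Its intensity was 459, 89.9 and 387 on fat Treg arrays and 287, 73.4 and 160 on fat Tconv arrays, with array 2 lowest in both, as for Ccl6. In LN it averaged 38.9 ± 4.35 in Treg and 40.2 ± 1.45 in Tconv (SD, n = 3 each). None of the 5 was called between Treg and Tconv in any tissue, where 12.9% of all tested genes were called in fat, 4.67% in LN and 5.67% in thymus.

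The receptors of these ligands were also read on the arrays. Of 15 CC and XC receptors 14 were measured and 11 tested, and 5 were higher and 1 was lower in fat Treg than in fat Tconv, against 12.9% of all tested genes called. Of these 5, Ccr1 and Ccr3 passed the dim filter through fat Treg alone, so their higher level there was built into their selection. Ccr3 averaged 74.5 ± 8.99 in fat Treg and 43.0 ± 5.21 in fat Tconv, at least 1.12-fold higher (limma adjusted p = 0.000699, or 0.000598 with no dim filter). Ccr1, a receptor of CCL3 and CCL5, was 632, 442 and 687 on fat Treg arrays and 30.0, 22.8 and 25.0 on fat Tconv arrays, and its other group means were 21.3 to 29.3. It was at least 8.72-fold higher in fat Treg (measured log2 difference 4.48 ± 0.21, limma adjusted p = 1.78e-10, or 2.85e-10 with no dim filter). Ccr2, the receptor of CCL2, averaged 3049 ± 295 in fat Treg and 947 ± 490 in fat Tconv, a difference of 1.82 ± 0.30 (limma adjusted p = 0.000298). In LN it averaged 308 ± 134 in Treg and 77.2 ± 4.39 in Tconv (1.91 ± 0.30, limma adjusted p = 0.000462). The largest of the others called higher in fat Treg were Ccr9 (log2 2.93) and Ccrl2 (2.58), and Ccr7, the receptor for homing to lymph nodes, was lower by 1.77 on the log2 scale, at 67.7 ± 15.4 in fat Treg and 250 ± 118 in fat Tconv.

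Ccr6, the receptor of CCL20, was called higher in Treg than in Tconv in LN and thymus and was not called in fat. It averaged 271 ± 32.1 in fat Treg and 262 ± 58.9 in fat Tconv, a log2 difference of 0.07 ± 0.25 with a 95% interval of -0.45 to 0.59 (limma adjusted p = 0.933). In LN it averaged 1795 ± 357 in Treg and 263 ± 86.1 in Tconv (2.80 ± 0.25, limma adjusted p = 1.18e-06), and in thymus 1843 ± 521 in Treg and 120 ± 6.09 in Tconv (3.90 ± 0.25, limma adjusted p = 2.31e-08; SD, n = 3 each). The Treg effect in fat minus that in LN was -2.73 ± 0.35 (limma adjusted p = 7.61e-05). Ccr4, the receptor of CCL22, averaged 101 ± 1.72 in fat Treg and 105 ± 19.2 in fat Tconv, against 58.9 ± 5.57 in LN Treg and 49.8 ± 7.25 in LN Tconv, and lay higher in fat in both. It was at least 1.53-fold higher in Treg (measured log2 difference 0.79 ± 0.16, limma adjusted p = 0.00091, or 0.000895 with no dim filter) and at least 1.57-fold higher in Tconv (1.07 ± 0.16, limma adjusted p = 9.67e-05, or 9.33e-05 with no dim filter). Xcr1, the receptor of XCL1, was below the dim level in all groups, with means of 33.3 to 41.8.

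**Figure D4:**
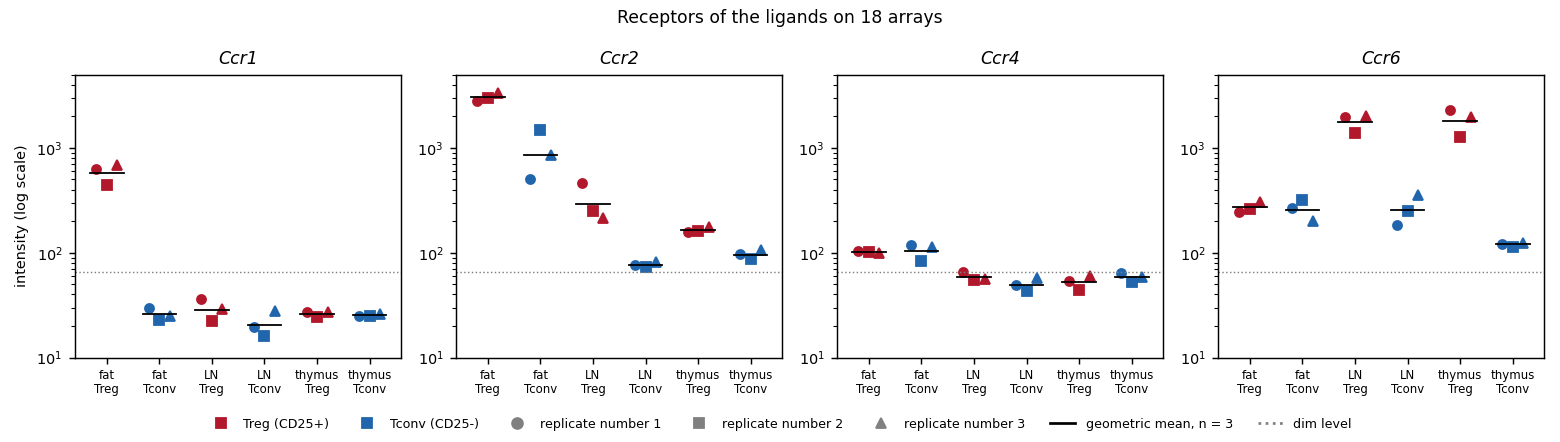
Intensity (log axis) of 4 receptor genes on the 18 arrays, by group, with symbols for replicate numbers, a black bar for the geometric mean of 3 arrays and a dotted line at the dim level of 66.2. Ccr1 is above the dim level in fat Treg only (442 to 687), Ccr2 is highest in fat Treg, and Ccr6 is high in LN and thymus Treg but not in either fat group.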

How the data were processed

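The authors deposited linear intensity values per probe set, computed with RMA per the submitters' processing notes. Its version, and which arrays were normalized together, are not given in the sources used here. RNA was amplified in 2 rounds, per the labels' protocols. The median deposited intensity of the 6 fat arrays was 76.9 to 82.2 and that of the other 12 was 57.9 to 63.0, so all 18 arrays were quantile-normalized together with limma 3.58.1 in R 4.3.3 and taken to log2. Precision is limited by the 3 arrays of a group, since arrays have no read depth.

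The platform annotation, which can be old, gave 1 gene symbol to 34945 of the 45101 probe sets, several to 932 and none to 9160 (64 more were controls). One coefficient per group was fitted over all 18 arrays (lmFit, eBayes, 12 residual and 4.81 prior degrees of freedom), after the dim filter described in the report. Calls were made at 0.05 after Benjamini-Hochberg adjustment across 12273 tested genes. The fit was tested on simulated data. The members, gene lists and alternatives were chosen with earlier results of these data known. A probe set was found for 122 of 135 listed genes. Named genes are all 8 ligands, their receptors, the 3 largest called changes per list and direction as far as the text needs them, and the 3 genes most correlated with each tested ligand. Defining markers of other cell types are named for their levels whatever their change.

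Treg and Tconv arrays of 1 replicate number deviated together from their group means in each tissue (r = 0.37 to 0.66 in the 9 pairs of the same number, -0.52 to 0.19 in pairs of different numbers), so the numbers pair the arrays and a fit with the number as a block was run as an alternative. The other alternatives were the deposited scale, median centring, other dim filters, the second Ccl6 probe set, only the arrays compared, an intensity trend with robust variance, file numbers as a block and leaving out each array.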

Additional observations from a re-analysis of the deposited data

Results flagged for a closer look

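Among the 4 ligands and 11 CC and XC receptors tested, the difference between Treg and Tconv changed with tissue for Ccl5 and 5 receptors. The share of all tested genes called was 5.41% for fat minus LN, 0.342% for thymus minus LN and 7.17% for fat minus thymus. For Ccl5 the Treg effect in fat minus that in LN was -3.30, that in thymus minus LN was 2.32 and that in fat minus thymus was -5.61 on the log2 scale, the comparisons with thymus being added after the values were seen. For Ccr1 the Treg effect was larger in fat than in LN by 4.01 and larger in fat than in thymus by 4.43. For Ccr6 the Treg effect in fat minus that in LN was -2.73 and that in fat minus thymus was -3.83. The same differences were 2.73 and 4.70 for Ccr9, 1.26 and 1.25 for Ccrl2 and 0.77 and 0.85 for Ccr3. Ccr1 and Ccr3 passed the dim filter through fat Treg alone, so a higher level in fat Treg was built into their selection and their differences are descriptions. With no dim filter the fat minus LN difference of Ccr9 missed the threshold (limma adjusted p = 0.0622). Each difference was tested in the limma fit over all 18 arrays.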

How the results depend on the processing

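Across the alternatives run, the Ccl5 calls in fat, in thymus and between fat and LN kept their direction and their side of the threshold. The same held for the 4 receptors Ccr1, Ccr2, Ccr4 and Ccr6 where they were called. With the replicate number as a block, the genes called moved to 2849 in fat (1579 without), 1096 in LN (573) and 1675 in thymus (696), and to 1460 for the Treg effect in fat minus LN (664). Called ligands moved to 2 in fat and 2 for that difference (Ccl6 joining Ccl5) and to 1 in LN (Ccl5), and the block changed no other ligand call but that of Ccl6 in fat minus thymus (limma adjusted p = 0.00097). The block of file numbers, whose arrays of fat and LN correlated at -0.04 to 0.40, changed no call of a ligand between fat and LN. With no dim filter Xcl1 joined the calls, which gave 2 ligands in fat, where 8.61% of all genes were then called. It gave 2 ligands for fat minus LN as well, a comparison that called 5.41% of tested genes with the filter. Xcl1 was then also called for fat against LN in Tconv (limma adjusted p = 2.92e-05, with 18.4% of genes called) and for fat minus thymus (0.000453, with 7.17% of tested genes called under the filter). Ccl2 was called for fat against LN in Treg (limma adjusted p = 0.0268, with 28% of genes called). Under the stricter filter Ccl5 was called in LN (1 ligand, limma adjusted p = 0.0493) and Ccl3 was not tested. On the deposited scale 7045 genes (4365 after quantile normalization) differed between fat and LN Treg and 5457 (2911) between fat and LN Tconv. With only the thymus arrays, 420 genes were called between Treg and Tconv (696). Leaving out each array in turn gave 1213 to 1694 genes and 1 to 3 ligands in fat, 405 to 459 genes and 0 to 1 ligands in LN, 471 to 1103 genes and 1 ligand in thymus, 3478 to 4217 genes and 3 to 4 ligands for fat against LN Treg, 2214 to 2903 genes and 4 ligands in Tconv, and 526 to 760 genes and 1 to 2 ligands for fat minus LN. Without both fat arrays of a number, an alternative chosen after seeing the data, number 1 gave 3 ligands in fat and 2 for fat minus LN (Ccl3 and Ccl4 joining in fat, and Ccl3 in the difference). Number 2 gave 1035 genes and 2 ligands in fat, and number 3 gave 913 genes in fat and 420 for fat minus LN. Among the tested ligands signs turned near 0: the second Ccl6 probe set gave -0.11 in LN, and leaving out single arrays gave -0.209 to 0.044 for Ccl4 in LN, -0.027 to 0.055 for Ccl4 in thymus, -0.034 to 0.219 for Ccl4 in thymus minus LN and -0.589 to 0.0093 for Ccl6 in thymus. Among the ligands below the dim filter, the Ccl22 difference between fat and LN was 0.33 in Treg and 0.33 in Tconv on the deposited scale (-0.12 and -0.06 after quantile normalization), Ccl2 between fat Treg and Tconv was -0.11 to 0.64 on leaving out single arrays, and Ccl20 there was -0.04 without both arrays of number 2, and other differences of these ligands that lay near 0 turned sign too. The cause of these changes was not tested. Intensities near or below the dim level (Ccl2, Xcl1, Ccl20, Ccl22) limit what can be said of those ligands.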
